A study of Homo sapiens with 8 samples.

Results

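The arachidonic acid and prostaglandin genes described here are 10 genes chosen by name: PLA2G4A, PTGS1, PTGS2, PTGES, PTGES2, PTGES3, PTGIS, HPGD, PTGER2 and PTGER4, out of 18417 genes that are named by a probeset of their own in the deposited table. Each was read by 1 probeset, and 9 of the 10 passed the filter on low signal that left 15931 genes for testing. They were measured on Affymetrix Human Gene ST arrays hybridized with RNA from spheroids, compact cell aggregates about 300 μm across that were grown in agarose molds in serum-containing medium. Of the arrays, 4 carried RNA of OVCAR-8R, a derivative of the human ovarian carcinoma cell line OVCAR-8 that was made resistant by stepwise exposure to cisplatin, a DNA-crosslinking platinum drug, up to 5 μM (the sample labels call it OVCAR-8C and describe it as resistant also after the drug was withdrawn). The other 4 carried RNA of spheroids of the parental, cisplatin-sensitive OVCAR-8 line. Each condition is thus a single cell line and its derivative, with no second resistant line. The question put to these genes was whether the enzymes that make PGE2 and prostacyclin, the enzyme that inactivates them, and the PGE2 receptors differed between resistant and sensitive spheroids.

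Prostaglandins are short-lived lipid signals. A phospholipase A2 frees arachidonic acid from membrane phospholipids, a cyclooxygenase turns it into the unstable intermediate PGH2, and a terminal synthase makes a specific prostanoid such as PGE2 or prostacyclin. PGE2 acts on G protein-coupled receptors at the cell surface and is inactivated after uptake by a dehydrogenase, and in many carcinomas the pathway is known for its part in inflammation, growth and invasion.

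Differences are given as OVCAR-8R minus OVCAR-8 in mean log2 signal, each followed by the standard error of limma, and p-values were adjusted by Benjamini-Hochberg over the 25628 probesets kept. A gene was called higher or lower at an adjusted p under 0.05 and a difference of at least 2-fold, which is 1 on the log2 scale. Of the 9 genes tested, 1 rose in OVCAR-8R (PTGES), 1 fell (PLA2G4A) and 7 did not reach the 2-fold threshold. Among all genes tested, 8.37% were called higher and 8.37% lower, 16.7% in all, so 2 of 9 is a share near the background. With an adjusted p under 0.05 at any size of difference, 4 of the 9 were higher and 3 lower, where 57.6% of all genes passed. The arrays of the lines did not overlap for 7 of the 9, against 56.8% of all genes. The median difference of the 9 genes was 0.12 and that of all genes tested was -0.01. In RNA from whole spheroids, fewer cells that express a gene and less RNA per cell cannot be told apart.

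**Figure D1:**
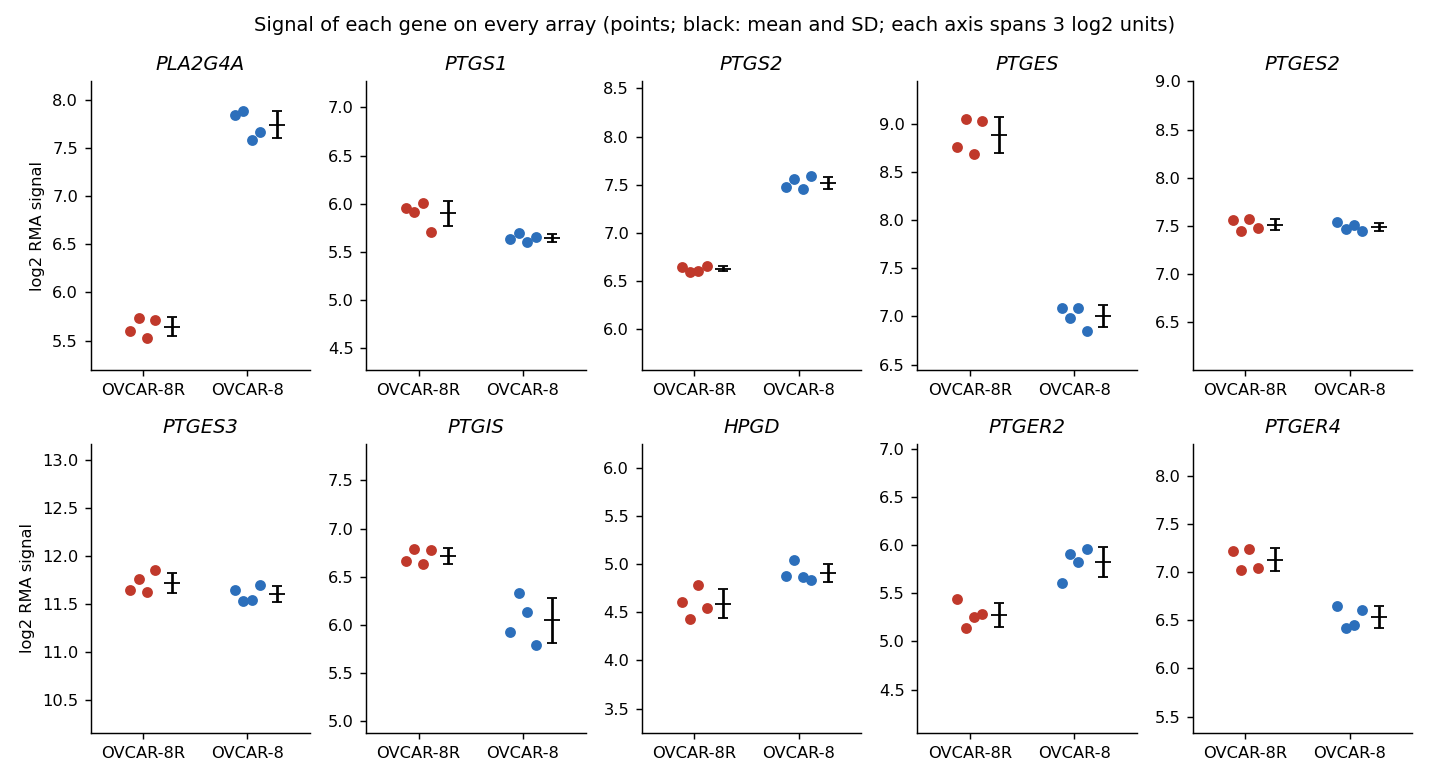
Log2 RMA signal of the 10 genes for OVCAR-8R (red, n = 4) and OVCAR-8 (blue, n = 4), where black marks show each line's mean and SD and every axis has an equal span. PLA2G4A was lower and PTGES higher in OVCAR-8R by well over the spread within a line, while the arrays of the lines overlapped for PTGES2 and PTGES3.

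PLA2G4A (probeset 7908351, chromosome 1) encodes cytosolic phospholipase A2 alpha, the calcium-dependent enzyme that releases arachidonic acid for prostaglandin synthesis. Its log2 signals were 5.60, 5.74, 5.53 and 5.71 on the OVCAR-8R arrays, against 7.84, 7.88, 7.58 and 7.67 on the OVCAR-8 arrays. The highest OVCAR-8R array lay 1.83 below the lowest OVCAR-8 array. PLA2G4A fell by 2.10 in log2 signal (standard error 0.09, n = 4 per line, limma adjusted p = 6.35e-08), to a signal 4.28-fold lower in OVCAR-8R. This placed it at rank 157 from the most negative difference among 15931 genes. Its mean in OVCAR-8R, 5.65 ± 0.10 (SD, n = 4), was above the log2 signal of 5.11 that bounds the lowest quartile in that line.

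PTGES (probeset 8164580, chromosome 9) encodes microsomal prostaglandin E synthase 1, the inducible enzyme that converts PGH2 into PGE2. Its log2 signals were 8.76, 9.05, 8.68 and 9.03 in OVCAR-8R, against 7.09, 6.98, 7.09 and 6.85 in OVCAR-8. All 4 OVCAR-8R arrays were above all 4 OVCAR-8 arrays, by at least 1.59. PTGES rose by 1.87 (standard error 0.11, n = 4 per line, limma adjusted p = 3.45e-07), a 3.67-fold difference and rank 474 from the most positive among the genes tested. The phospholipase and the PGE2 synthase were thus called in opposite directions.

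PTGS2 (probeset 7922976, chromosome 1) encodes cyclooxygenase-2, the inducible isoform that cytokines and growth factors switch on. Its log2 signals were 6.65, 6.60, 6.61 and 6.66 on the OVCAR-8R arrays, against 7.48, 7.56, 7.46 and 7.59 on the OVCAR-8 arrays. All OVCAR-8R arrays lay below all OVCAR-8 arrays by at least 0.80, and the SD within OVCAR-8R was only 0.03. The difference was -0.89 (standard error 0.07, n = 4 per line, limma adjusted p = 1.98e-06), a 1.86-fold lower signal in OVCAR-8R. It did not reach the 2-fold threshold, although its 95% interval, from -1.04 to -0.75, includes a 2-fold difference.

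PTGS1 (probeset 8157650, chromosome 9) encodes cyclooxygenase-1, the isoform present in most tissues without a stimulus. It had log2 signals of 5.96, 5.92, 6.01 and 5.71 in OVCAR-8R, against 5.63, 5.70, 5.60 and 5.66 in OVCAR-8. The lines were separated by only 0.01, since the fourth OVCAR-8R array lay next to the second OVCAR-8 array. The difference was 0.25 (standard error 0.08, n = 4 per line, limma adjusted p = 0.0244), under 2-fold. The adjusted p was no longer under 0.05 in 6 of 18 other settings that test for any difference (adjusted p up to 0.172), 5 of which left out 1 array: OVCAR-8R array 1, 2 or 3, or OVCAR-8 array 1 or 3.

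The promoters of the called genes and of PTGS2 are shown because the phospholipase, the cyclooxygenase and the synthase differed in size and direction, and cyclooxygenase-2 is the textbook case of an inducible promoter. RefSeq (build GRCh38.p14) holds a promoter for 9 of the 10 genes. The 250 bases before the start of each gene, 5′ to 3′, are at chr1:186680424-186680673 on the minus strand for PTGS2, at chr9:129753043-129753292 on the minus strand for PTGES and at chr1:186828699-186828948 on the plus strand for PLA2G4A. Capitals mark matches, on either strand, to a TATA box (TATAAA), a cAMP response element half-site (TGACG), a C/EBP motif (TTNNGNAA), an AP-1 motif (TGANTCA), an E-box (CACGTG), a GC box (GGGCGG) or the NF-kB consensus.
PTGS2: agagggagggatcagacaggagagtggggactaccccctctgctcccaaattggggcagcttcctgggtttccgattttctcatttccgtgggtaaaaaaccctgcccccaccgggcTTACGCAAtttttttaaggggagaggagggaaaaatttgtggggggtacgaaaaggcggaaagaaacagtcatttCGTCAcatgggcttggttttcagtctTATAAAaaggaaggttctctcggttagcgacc
PTGES: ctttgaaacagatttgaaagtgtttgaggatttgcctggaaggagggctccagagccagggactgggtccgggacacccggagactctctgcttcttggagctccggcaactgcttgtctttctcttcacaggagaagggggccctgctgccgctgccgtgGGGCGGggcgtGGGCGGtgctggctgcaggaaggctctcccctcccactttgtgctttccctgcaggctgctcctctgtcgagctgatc
PLA2G4A: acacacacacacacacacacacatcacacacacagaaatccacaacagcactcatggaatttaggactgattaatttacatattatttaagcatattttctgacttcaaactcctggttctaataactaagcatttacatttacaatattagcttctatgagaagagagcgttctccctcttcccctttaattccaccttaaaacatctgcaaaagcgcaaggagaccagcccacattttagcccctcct

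The PTGS2 window held 1 TATA box, from 32 to 27 bases before the start, 1 cAMP response element half-site on the opposite strand, from 58 to 54 bases before it, and 1 C/EBP match, from 133 to 126 bases before it. Among 35116 RefSeq promoter windows of this length, 10.7% held the TATA box letters, 21.2% the half-site and 33.2% the C/EBP letters. The PTGES window held 2 GC boxes, starting 89 and 78 bases before the start, letters present in 42.6% of windows. The PLA2G4A window, which opens with a run of CA repeats, held none of the motifs searched. The NF-kB consensus (5.21% of windows), the AP-1 motif (6.57%) and the E-box (6.34%) had no match in these 3 windows. The NF-kB search took only exact matches to 1 form of the consensus. The PTGS2 stretch gggactaccc departs from that form and was therefore not marked. A match describes letters and is no binding site, and a missing match says only that these letters are not in the window.

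The other PGE2 synthases differed little between the lines. PTGES2 (probeset 8164362) encodes a membrane-associated PGE2 synthase that is not induced by cytokines. Its log2 signals lay between 7.45 and 7.57 in OVCAR-8R and between 7.45 and 7.54 in OVCAR-8, so the arrays overlapped. Its difference was 0.02, with a 95% interval from -0.12 to 0.17 (n = 4 per line, limma adjusted p = 0.79). PTGES3 (probeset 7964250) encodes p23, a co-chaperone of HSP90 that also has cytosolic PGE2 synthase activity. It had log2 signals of 11.65, 11.76, 11.63 and 11.85 in OVCAR-8R, against 11.65, 11.53, 11.54 and 11.70 in OVCAR-8, and a difference of 0.12 with an interval from -0.06 to 0.29 (n = 4 per line, limma adjusted p = 0.249). Both intervals lie within 2-fold, and among the 3 synthases only PTGES passed the test.

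PTGIS (probeset 8066925, chromosome 20) encodes prostacyclin synthase, which makes prostacyclin from PGH2 and is best known from blood vessel walls. Its log2 signals were 6.66, 6.79, 6.63 and 6.78 in OVCAR-8R, against 5.93, 6.33, 6.14 and 5.79 in OVCAR-8. The lines did not overlap, and OVCAR-8R varied less (SD 0.08) than OVCAR-8 (SD 0.24). The difference of 0.66 (standard error 0.12, n = 4 per line, limma adjusted p = 0.000808) was under 2-fold. In RefSeq, PTGIS and HPGD each overlap a long noncoding RNA gene, whose share in the signal was not tested.

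HPGD (probeset 8103769, chromosome 4) encodes the dehydrogenase that starts the inactivation of PGE2 and related prostaglandins. It was the gene that the filter removed, since its mean signal fell into the bottom quartile in OVCAR-8R and in OVCAR-8. Its log2 signals were 4.61, 4.43, 4.78 and 4.54 in OVCAR-8R, against 4.88, 5.04, 4.87 and 4.83 in OVCAR-8. In a fit without the filter its difference was -0.31 (standard error 0.09, n = 4 per line, limma adjusted p = 0.0179), and no fold is given at signals this close to background.

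The receptors PTGER2 and PTGER4 encode EP2 and EP4, both of which raise cAMP when PGE2 binds. PTGER4 (probeset 8105067, chromosome 5) had log2 signals of 7.22, 7.02, 7.24 and 7.04 in OVCAR-8R, against 6.65, 6.42, 6.45 and 6.61 in OVCAR-8. Its difference was 0.60 (standard error 0.09, n = 4 per line, limma adjusted p = 0.00023). PTGER2 (probeset 7974366, chromosome 14) had 5.44, 5.14, 5.25 and 5.28 in OVCAR-8R, against 5.61, 5.91, 5.82 and 5.96 in OVCAR-8, and a difference of -0.55 (standard error 0.10, n = 4 per line, limma adjusted p = 0.00102). For each receptor the lines did not overlap, with PTGER4 higher and PTGER2 lower in OVCAR-8R, and each difference was under 2-fold. The PTGER2 mean in OVCAR-8R, 5.28, was close to the log2 signal of 5.11 that bounds the lowest quartile there. The size of its fall is therefore uncertain. In RefSeq, PTGER4 overlaps the gene TTC33, whose share in the probeset's signal was not tested.

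**Figure D2:**
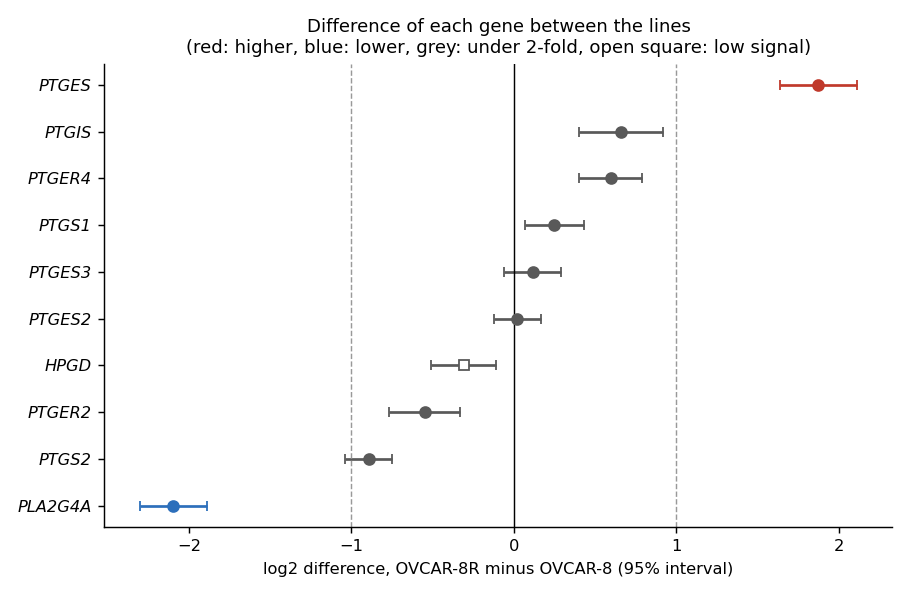
Log2 difference between the lines for each gene, OVCAR-8R minus OVCAR-8, with its 95% interval from limma and dashed lines at 2-fold. PTGES (1.87, red) and PLA2G4A (-2.10, blue) passed the 2-fold threshold, PTGS2 lay just inside it at -0.89, and HPGD (open square) comes from the fit without the filter on low signal.

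Of these genes, 3 pairs were compared within each array, as the log2 signal of one minus that of the other. With 4 arrays per line, the smallest p that an exact two-sided permutation test can give is 0.0286. Each of the 3 pairs reached it (adjusted p = 0.0286 over the 3 pairs), 1 of them with HPGD, which was at low signal in both lines. In each pair, both genes taken singly already separated the lines, in opposite directions. The pair values therefore had to separate the lines, so these p-values were fixed in advance and add no support. PTGS2 minus PTGS1 was 0.73 ± 0.15 in OVCAR-8R and 1.88 ± 0.04 in OVCAR-8 (SD, n = 4 each), a difference of -1.15 (standard error 0.08). The inducible cyclooxygenase was thus lower relative to its constitutive isoform by 2.21-fold, against 1.86-fold for PTGS2 alone. The rest comes from PTGS1, whose lines were only 0.01 apart and whose difference did not pass in every setting. PTGES minus HPGD was 4.29 ± 0.33 in OVCAR-8R and 2.10 ± 0.14 in OVCAR-8 (SD, n = 4 each), a difference of 2.19 (0.18). Since HPGD was in the bottom quartile of signal throughout, this value is no measured ratio of synthase to dehydrogenase, and PTGES alone differed by 1.87. PTGER4 minus PTGER2 was 1.85 ± 0.11 in OVCAR-8R and 0.71 ± 0.23 in OVCAR-8 (SD, n = 4 each), a difference of 1.14 (0.13). PTGER2 was close to low signal in OVCAR-8R, so the size of this value is uncertain. In every pair, no OVCAR-8R array overlapped an OVCAR-8 array, which follows from the genes taken singly. The size of such a value within a line also depends on the probes and has no meaning on its own.

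**Figure D3:**
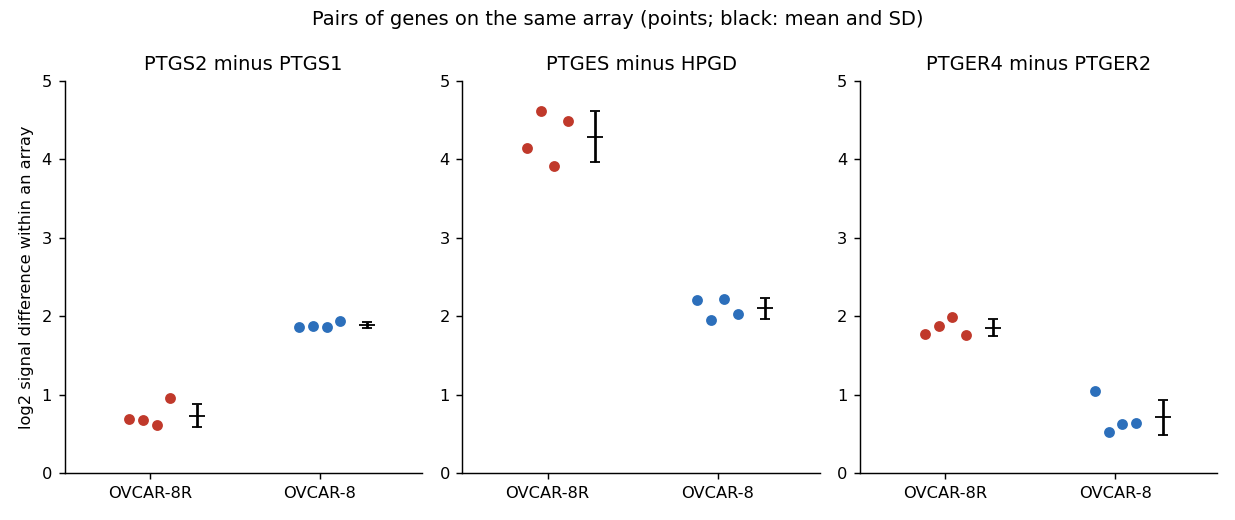
Log2 signal of one gene minus another on the same array, for OVCAR-8R (red, n = 4) and OVCAR-8 (blue, n = 4), where black marks show each line's mean and SD. The lines differed by -1.15 for PTGS2 minus PTGS1, by 1.14 for PTGER4 minus PTGER2 and by 2.19 for PTGES minus HPGD, where HPGD was at low signal in both lines.

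PTGS2 and PLA2G4A, which encode consecutive enzymes of the pathway, are also consecutive protein-coding genes on chromosome 1 in RefSeq, and both were lower in OVCAR-8R. The 15 protein-coding genes on each side were therefore looked up, a choice made after the values of the pair were seen. Of these 30 neighbours, 17 were tested, 8 had low signal in both lines and 5 had no probeset of their own. At any size of difference, 14 of the 17 were lower in OVCAR-8R and 2 were higher, where 30.0% of all genes were lower and 27.6% higher, and 7 were called lower at 2-fold with 1 higher. On the side of PTGS2, ODR4 had a difference of -1.38 (standard error 0.09), TPR, a nuclear pore protein gene, -0.56 (0.07), IVNS1ABP -0.94 (0.07) and TRMT1L, which encodes a protein related to tRNA methyltransferases, -1.69 (0.09). On the side of PLA2G4A, BRINP3 had -1.27 (0.12), with a signal in the bottom quartile in OVCAR-8R, RGS2, which encodes a regulator of G protein signalling, -0.98 (0.12), UCHL5, a deubiquitinase gene, -1.30 (0.11) and RO60 -1.34 (0.08). The run was broken by NIBAN1, higher by 3.11 (0.11), and by GLRX2 and CDC73, with differences of 0.20 and 0.21. PLA2G4A had the most negative difference of the 19 genes tested in this stretch, its own pair included. No DNA copy number was measured, so its part was not tested.

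**Figure D4:**
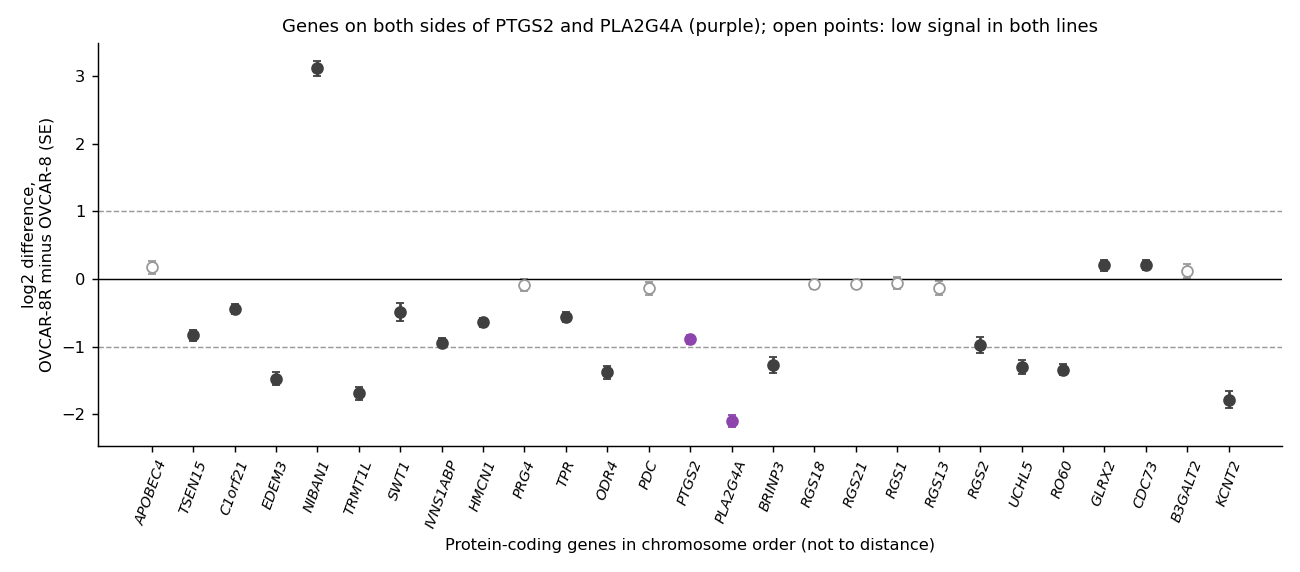
Log2 difference (OVCAR-8R minus OVCAR-8, with its standard error) of the protein-coding genes around PTGS2 and PLA2G4A (purple), in chromosome order and not to distance, with dashed lines at 2-fold. Filled points are genes that were tested, of which NIBAN1 (3.11) stands apart from a run of genes that are mostly lower, and open points are genes of low signal in both lines, near 0.

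The rest of the pathway was read from 10 lists written from general knowledge, and each list is described by its counts and median, to be set against the background of 8.37% higher and 8.37% lower. Of 28 tested phospholipases and other enzymes that release arachidonic acid, 4 rose, 2 fell and 22 were not called (median difference 0.01). MGLL, monoacylglycerol lipase, which frees arachidonic acid from 2-arachidonoylglycerol, rose by 3.09 (standard error 0.09), and averaged a log2 signal of 9.31 ± 0.06 in OVCAR-8R, against 6.22 ± 0.18 in OVCAR-8 (SD, n = 4 each). DAGLB, the diacylglycerol lipase that makes 2-arachidonoylglycerol, rose by 1.11 (0.08), the lysosomal phospholipase gene PLA2G15 by 1.20 (0.09) and the phospholipase gene PLAAT3 by 1.07 (0.14). PLAAT3 was under 2-fold without OVCAR-8R array 1 (0.98) or array 3 (0.99). PLA2G7, a secreted enzyme that hydrolyses platelet-activating factor, fell by 1.90 (0.08) and the calcium-independent phospholipase gene PNPLA8 fell by 1.22 (0.10). The signal of PLA2G7 in OVCAR-8R lay in the lowest quartile, so its size is uncertain. The only close relative of PLA2G4A with an adjusted p under 0.05 was PLA2G4C, at 0.62 (0.11), which was under 2-fold. The secreted forms PLA2G2A and PLA2G5 had differences of -0.07 and -0.14.

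Genes that supply arachidonic acid and return it to phospholipids were called in both directions, with 3 of 16 tested higher, 3 lower and 10 not called, and a median of 0.51. The desaturase genes FADS2 and FADS1, whose enzymes act in arachidonic acid synthesis, rose by 2.59 (standard error 0.12) and 1.53 (0.06). ACSL4, the acyl-CoA synthetase that prefers arachidonic acid, rose by 1.20 (0.08), while ACSL1 fell by 1.77 (0.08). LPCAT2 and LPCAT1, lysophosphatidylcholine acyltransferase genes, fell and had differences of -4.15 (0.11) and -1.98 (0.13). LPCAT3 and LPCAT4, of the same family, were higher by 0.31 (0.11) and 0.56 (0.12), both under 2-fold. Which of these enzymes handle arachidonic acid in these cells was not tested. The log2 signal of LPCAT2 was 4.64 ± 0.21 in OVCAR-8R, within the lowest quartile, and 8.79 ± 0.08 in OVCAR-8 (SD, n = 4 each). At any size of difference, 11 of the 16 genes were higher and 3 lower, where 27.6% and 30.0% of all genes were, and the higher ones included MBOAT7, the acyltransferase that places arachidonic acid in phosphatidylinositol, at 0.83 (0.07).

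Among 10 tested genes for other prostanoid synthases, AKR1C3, which makes PGF2 alpha and related products, rose by 1.45 (standard error 0.12) over a signal in the bottom quartile in OVCAR-8, and GSTM3 fell by 1.03 (0.09). GSTM3 was under 2-fold, at -0.98 to -0.99, without OVCAR-8 array 1 or 2 and with cyclic loess. AKR1C and GSTM genes have close copies, so their probesets may share signal. PTGDS, the prostaglandin D synthase, and TBXAS1, the thromboxane synthase, had differences of 0.22 and 0.02. Of the 10 genes, 8 were not called (median 0.04). Of 6 tested genes on the list of other prostanoid receptors (median 0.01), 5 were not called and 1 fell. It was PTGFRN, which encodes a surface protein that inhibits the PGF2 alpha receptor and is no receptor itself, with a difference of -2.08 (0.13). PTGER1, the gene of the EP1 receptor, had a difference of 0.58 (0.11), and PTGER3, the gene of EP3, was at low signal in both lines.

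Breakdown and transport genes were called in both directions, with a median of -0.37. Of 9 tested, PTGR1 rose by 2.77 (standard error 0.12) and SLCO3A1, an organic anion transporter gene, by 2.06 (0.09). PTGR2 fell by 1.38 (0.09), PTGR3 fell by 1.51 (0.12), and 5 were not called. The PTGR1 mean in OVCAR-8, 5.19, was close to the log2 signal of 5.16 that bounds the lowest quartile there. The size of its rise is therefore uncertain. The 3 PTGR genes encode reductases, which act on the products that the HPGD enzyme makes. The prostaglandin importer gene SLCO2A1 had a difference of -0.47 (0.09) and ABCC4, an exporter of PGE2, one of -0.37 (0.08), both under 2-fold. In the lipoxygenase and leukotriene list (median 0.07), 12 of 14 were not called, PTGR1 counted as 1 higher and MGST2 fell by 1.12 (0.07). ALOX5, the lipoxygenase of leukotriene synthesis, had a difference of 0.49 (0.08), and LTA4H, which makes leukotriene B4, one of -0.61 (0.07). All 6 tested genes of the cytochrome P450 branch, which makes epoxides and hydroxy acids from arachidonic acid, differed by less than 2-fold (median 0.13). At any size of difference 2 of them were higher, among them CYP2U1 at 0.89.

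The list of regulators of PTGS2 transcription and mRNA decay held 9 called genes. Of 25 tested, 8 rose, 1 fell and 16 were not called (median 0.34). ANXA1, counted on this list although annexin A1 is known for restraining phospholipase A2, rose by 4.08 (standard error 0.15). It is induced by glucocorticoids. ZFP36L1, a protein that promotes decay of AU-rich mRNAs, rose by 2.62 (0.14) and TNFAIP3, an inhibitor of NF-kB signalling, by 2.35 (0.08). CEBPB and CEBPD, activators that bind C/EBP motifs, rose by 1.52 (0.10) and 1.49 (0.12), and their binding to the PTGS2 promoter was not tested. The NF-kB subunit genes RELA and NFKB1 rose by 1.20 (0.08) and 1.15 (0.10), and NFATC2 by 1.03 (0.10). NFATC2 was under 2-fold without array 2 of OVCAR-8R (0.95) or array 2 of OVCAR-8 (0.99). TSC22D3, a glucocorticoid-induced gene, fell by 1.90 (0.09). CREB1, which binds cAMP response elements, had a difference of -0.67 (0.12) and ELAVL1, which stabilises AU-rich mRNAs, one of 0.34 (0.09). PTGS2 itself was lower in OVCAR-8R, as given above, and the part of these genes in that was not tested.

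Of 29 tested genes on the list of EP2 and EP4 signalling, 3 rose, 2 fell and 24 were not called (median 0.01). The adenylate cyclase genes ADCY5 and ADCY7 rose by 1.15 (standard error 0.13) and 1.13 (0.07). GPRC5A, counted on this list although it encodes an orphan receptor, rose by 2.63 (0.11). PDE3B, a phosphodiesterase that breaks down cAMP, fell by 1.87 (0.14) and PRKAR2B, a regulatory subunit of protein kinase A, fell by 1.19 (0.13). Among 14 tested genes on the list of cAMP response genes, not all of which respond to cAMP alone, 2 rose, 2 fell and 10 were not called. The median was -0.10. At any size of difference 3 were higher and 6 lower, where 27.6% and 30.0% of all genes were. ICAM1, an adhesion molecule that cytokines induce, rose by 5.27 (0.13) and DUSP1, a MAP kinase phosphatase, by 2.26 (0.07). The nuclear receptor genes NR4A2 and NR4A3 fell, with differences of -1.49 (0.10) and -1.27 (0.09), and NR4A1 had a difference of 0.00.

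**Figure D5:**
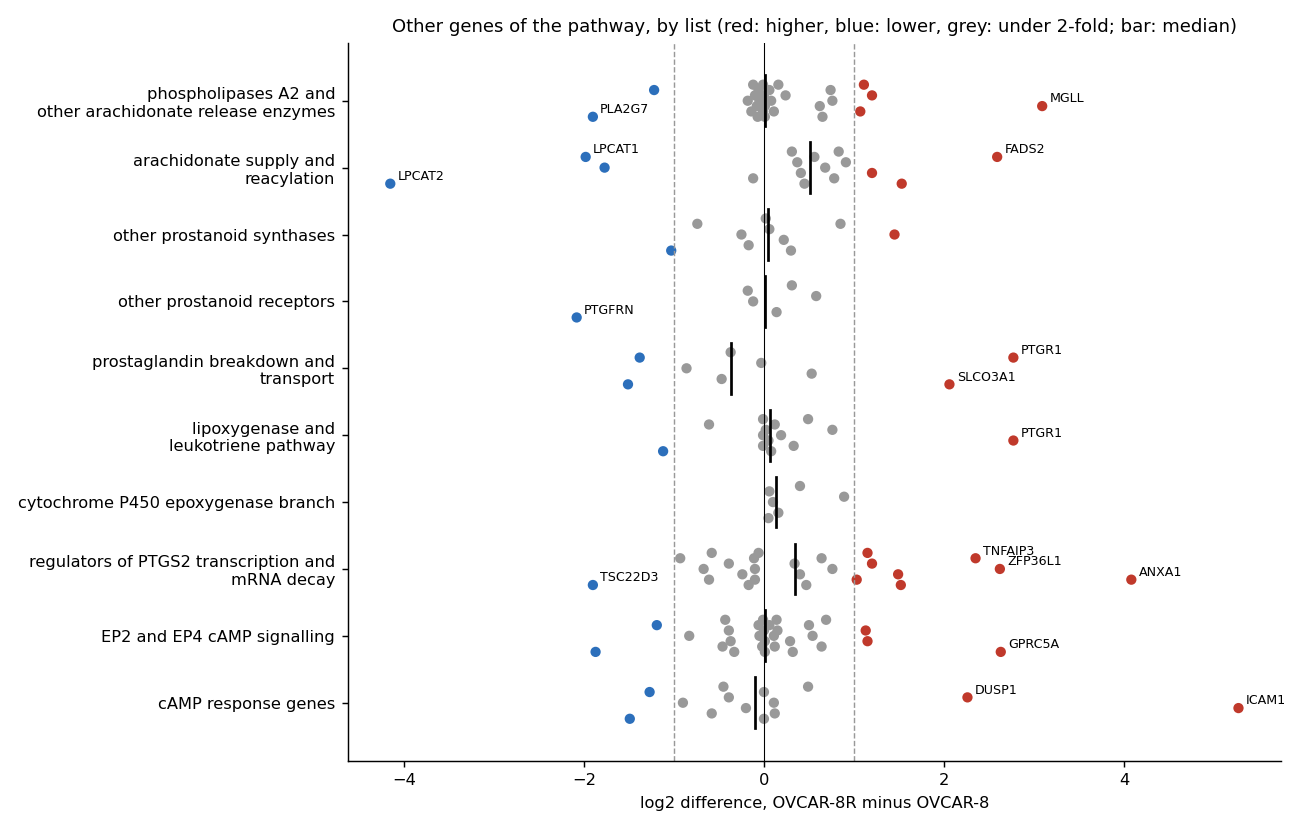
Log2 difference (OVCAR-8R minus OVCAR-8) of each tested gene in the 10 pathway lists, with called genes in red (higher) and blue (lower), a bar at the median of each list and dashed lines at 2-fold. The list of PTGS2 regulators, which also counts ANXA1, holds 8 higher genes and 1 lower, whereas the enzymes of arachidonate supply hold 3 of each.

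Markers of other cells that make prostanoids were checked, since RNA of such cells would add to these signals. The pan-leukocyte marker PTPRC and the mast cell protease gene CPA3 were in the lowest quartile in both lines, and the 6 endothelial markers had differences from -0.01 to 0.17. Of 5 platelet markers, PPBP was in the lowest quartile in both lines and 4 were tested. GP9 had a difference of 0.31 (standard error 0.10, limma adjusted p = 0.0286), and PF4, ITGA2B and GP1BA lay between -0.17 and 0.17. The summed platelet list lay between 8.35 and 8.60 in OVCAR-8R and between 8.31 and 8.51 in OVCAR-8. Of 9 measured leukocyte markers, 4 were at low signal in both lines, and only CD68, a lysosomal protein gene, rose, by 2.52 (standard error 0.08). The summed leukocyte list lay between 11.38 and 11.46 on the log2 scale in OVCAR-8R and between 9.64 and 9.82 in OVCAR-8, a difference carried by CD68. Of the mast cell list KIT, a receptor gene that other cells also express, fell by 2.30 (0.12), to a signal in the lowest quartile in OVCAR-8R. Of the fibroblast list COL1A1 rose by 2.04 (0.08), LUM fell by 1.15 (0.11), and DCN was at low signal in both lines. LUM was in the lowest quartile in OVCAR-8R and was no longer called with treat, limma's test for more than 2-fold. PDGFRB was higher by 0.60 (0.09, limma adjusted p = 0.000242), under 2-fold, and PDGFRA, COL1A2 and COL3A1 lay between -0.07 and -0.02. The summed fibroblast list lay between 9.96 and 10.11 in OVCAR-8R and between 8.83 and 9.04 in OVCAR-8. Of 11 markers of ovarian carcinoma and Mullerian epithelium, 6 rose and 5 were not called. KRT7, MSLN and PAX8 rose by 4.45 (0.18), 3.83 (0.15) and 3.77 (0.11). Of the uncalled markers, WT1 had a difference of -0.86 (0.12) and CDH1 one of -0.23 (0.08), both with an adjusted p under 0.05 from limma. MUC16 was near the same signal in both lines, 5.74 ± 0.14 in OVCAR-8R and 5.67 ± 0.02 in OVCAR-8 (SD, n = 4 each). The part of these marker differences in the prostaglandin genes was not tested.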

How the data were processed

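The authors extracted total RNA from spheroids, hybridized it to Affymetrix Human Gene ST arrays and ran RMA with Expression Console. The deposited values are 1 intensity per probeset and array on a linear scale, unfiltered, for 33297 probesets, and log2 of each was taken here. RMA quantile-normalizes the arrays, which removes overall differences in signal between the lines. Array medians lay between 6.67 and 6.73 on the log2 scale. An array has no read depth, and precision is limited by the number of arrays, 4 in each line. Genes were named from the 19460 probesets annotated to 1 gene, with symbols checked in RefSeq (GRCh38.p14), and no array coordinates are given because the annotation names no build.

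As in the methods, probesets with a mean among the dimmest 25% in OVCAR-8R and also in OVCAR-8 (log2 5.11 in OVCAR-8R and 5.16 in OVCAR-8) were left out. A gene with several probesets was represented by the brightest. The test was lmFit followed by eBayes in limma 3.58.1 (R 4.3.3) on all 25628 probesets kept, without a replicate block. On simulated arrays of these lines (25628 probesets) the test called 97 of 100 probesets that were shifted by 1.5 in log2 signal and 97 of 100 shifted by 2. The simulated noise was independent between arrays, and both shifts lay above the 2-fold threshold. The simulation therefore says nothing of smaller differences or of arrays that deviate together. The titles call the arrays biological replicates and do not state where in the procedure they part, so the p-values reflect only array-to-array spread, some of which may be technical. Genes and lists were chosen with earlier results of these data known. Named are all 10 genes, of each pathway list the called genes up to 6 in each direction, and of each marker list up to 3. NFKB1, NFATC2, the uncalled list genes and the chromosomal neighbours were chosen after their values were seen. The alternatives were other filters, an intensity trend, treat, no fold threshold, the methods' t-test with Benjamini-Hochberg adjustment, cyclic loess, median centring, array weights, the mean of all probesets, a block for the replicate number and the omission of single arrays, and, chosen after seeing the data, the use of only some OVCAR-8R arrays.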

Additional observations from a re-analysis of the deposited data

Results flagged for a closer look

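PTGS2 minus PTGS1 was 1.94 on OVCAR-8 array 4, against 1.86, 1.87 and 1.86 on the other OVCAR-8 arrays. Its gap to the nearest of them was 0.833 of the range of the 4 arrays, above the 95% critical value of Dixon's test for 4 values. Chance flags about 1 in 20 groups, and 26 groups of 4 arrays were examined. The whole range is small beside the difference of -1.15 between the lines.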

How the results depend on the processing

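PTGES stayed higher and PLA2G4A lower at 2-fold in every alternative run, with differences from 1.71 to 2.03 and from -2.18 to -2.01, and with either pair of OVCAR-8R arrays alone. Leaving out single arrays kept 1 higher and 1 lower among these genes. With no fold threshold the counts were 4 and 3, and over all genes 4396 higher and 4776 lower, while treat, limma's test for more than 2-fold, left 832 and 643, against 1334 each. Over single arrays left out, all genes gave 1306 to 1359 higher and 1269 to 1401 lower. PTGS2 lay between -0.92 and -0.87 and PTGER2, PTGER4 and PTGIS kept adjusted p-values under 0.05 in every alternative that tested them for any difference. PTGES3 passed at any size under cyclic loess alone (0.26, adjusted p = 0.00854), and PTGES2 was -0.03 with only OVCAR-8R arrays 2 and 4. Of 38 called pathway genes, 24 kept their call in all alternatives, and 14 lost it with treat, among them RELA, NFKB1, ACSL4, ADCY5, ADCY7, DAGLB, PLA2G15, PNPLA8, PRKAR2B, NR4A3 and MGST2. GSTM3, NFATC2 and PLAAT3 also lost it without single arrays (-0.98 for GSTM3 without OVCAR-8 array 2, 0.95 for NFATC2 without OVCAR-8R array 2 and 0.98 for PLAAT3 without OVCAR-8R array 1). With 3 arrays in a line the pair tests cannot go below 0.0571, and the differences were -1.22 to -1.11 (PTGS2 minus PTGS1), 2.08 to 2.32 (PTGES minus HPGD) and 1.08 to 1.25 (PTGER4 minus PTGER2). The deviations of same-numbered arrays correlated positively for numbers 1 and 4 and not for 2 and 3 (r of 0.165, -0.323, -0.0515 and 0.443), and since not every number did, the arrays were not treated as pairs. A replicate block gave 1334 higher and 1334 lower genes and the same 2 calls here, and sign permutation within numbered pairs cannot go below 0.125 (differences -1.15, 2.19 and 1.14).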

Other observations

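Within OVCAR-8R, arrays 1 and 3 deviated together from the line's mean over all probesets kept (r = 0.427), as did arrays 2 and 4 (r = 0.484). Deviations from the mean of the same arrays cancel out, so these correlations are not independent of each other. Of the 10 prostaglandin genes, 8 had arrays 1 and 3 apart from arrays 2 and 4, and PTGS2 and PTGER2 did not. The share of all genes split in this way was not counted, so 8 of 10 cannot be read as particular to these genes. PTGES was at 8.76 and 8.68 on arrays 1 and 3 and at 9.05 and 9.03 on arrays 2 and 4, and PTGER4 at 7.22 and 7.24 on arrays 1 and 3 and at 7.02 and 7.04 on arrays 2 and 4. PTGES and PTGER4, both higher in OVCAR-8R than in OVCAR-8, thus ran in opposite directions among the OVCAR-8R arrays. The labels name no batch for these arrays.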
